A study of Mus musculus with 3 samples.

Results

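Gene expression in primary mouse peritoneal macrophages kept with LPS for 5 h at 100 ng/ml was compared with that in untreated macrophages, with 1 library in each condition. Peritoneal macrophages are the resident phagocytes of the abdominal cavity. They were held in DMEM, a standard culture medium, and RNA was extracted with Trizol. Another library, from macrophages given 5 apoptotic cells per macrophage for 5 h, entered only the filter on mean level. No label gives a time for the untreated library, an animal number, a sex, an age or a strain beyond wild type, so LPS and the time or handling in culture cannot be told apart as sources of a difference.

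The comparison covered 3421 of the 20574 gene symbols in the tables. These are the genes above 0 in both libraries whose mean over all 3 libraries reached 1 FPKM, the number of fragments of a transcript scaled to its length and to all mapped fragments. A gene that met this filter only through its LPS level could enter only as higher. One that met it only through its untreated level could enter only as lower. Each gene was described by its level in both libraries and by the log2 ratio of LPS to untreated after 1 FPKM was added to each level, which understates the difference of low genes. Calls of 2-fold refer to a log2 ratio of at least 1 in size on this scale, fold values are plain ratios of the levels, and a pair of levels gives the untreated library before the LPS library. With 1 library a condition there is no replicate check and no p-value, and every difference given here is between these libraries.

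LPS is the outer membrane lipid of Gram-negative bacteria. It is handed by CD14 to a receptor made of TLR4 and MD-2, which signals through the adaptors MyD88 and TRIF. MyD88 leads to NF-kB and MAP kinases and so to cytokine and chemokine transcription, whereas TRIF leads to IRF3, type I interferon and then interferon-stimulated genes, and both arms induce inhibitors that end the response.

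Of the 3421 genes, 291 (8.51%) were at least 2-fold higher with LPS, 896 (26.2%) were at least 2-fold lower and 2234 lay within 2-fold. At 4-fold the counts were 68 higher and 194 lower. Over all genes the log2 ratio had a median of -0.40, with quartiles at -1.03 and 0.23, and 2275 ratios lay below 0. The split therefore depends on how the libraries are scaled: higher genes made up 24.5% of those past 2-fold as deposited, 43.0% after upper-quartile scaling, 59.9% after median-of-ratios scaling and 52.5% once the median was subtracted, which left 535 genes higher (15.6%) and 485 lower (14.2%). These last 3 settings are called rescalings below. List medians are also given relative to all genes, and list counts stand beside the shares of 8.51% higher and 26.2% lower. Lower genes nearer to the threshold than the size of the median lie within 2-fold once it is subtracted. At the upper threshold, Lmo4 lay just inside at 1.0020 and H47 just outside at 0.9935. At the lower one, Sertad3 lay just inside at -1.0010 and Abcc3 just outside at -0.9994. At the filter, Lmbr1 had a mean of 1.0013 FPKM and Orm2 of 0.9993 FPKM.

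**Figure D1:**
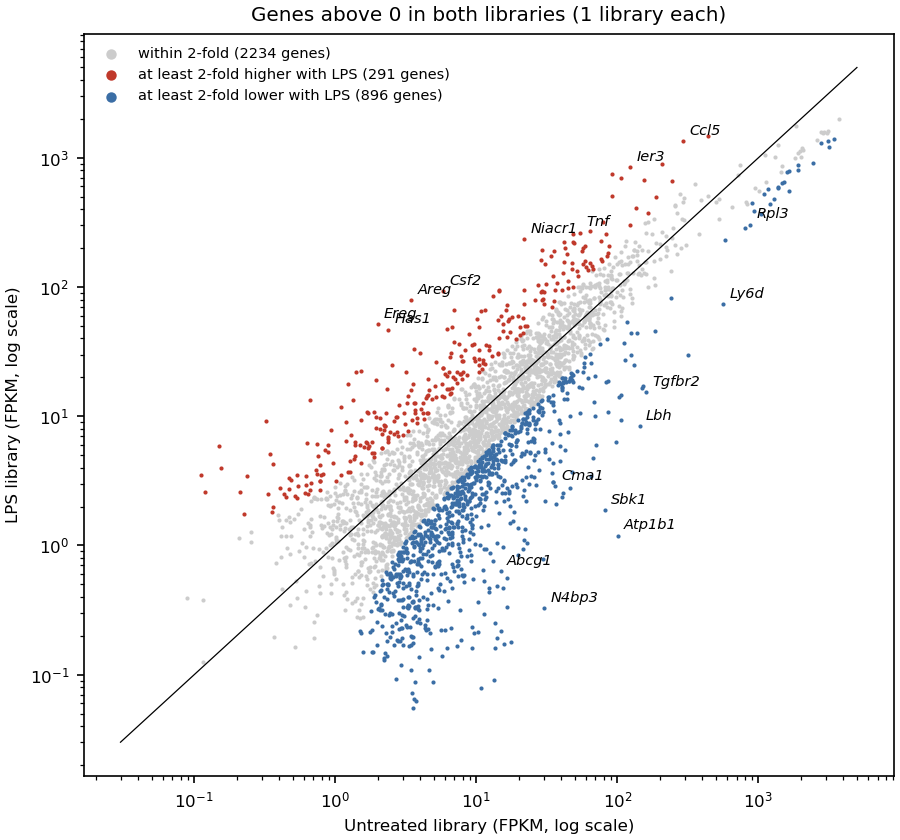
Level of each of the 3421 genes in the untreated library (x axis, FPKM, log scale) and in the LPS library (y axis, FPKM, log scale), with the line of equal levels. Red points are the 291 genes at least 2-fold higher with LPS and blue points the 896 at least 2-fold lower.

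The levels summed to 199881 FPKM in the untreated library and 200224 FPKM with LPS. From the steps between the smallest levels, 1 FPKM on a transcript of 2 kb, after an offset of 250 bases was taken off, stood for about 6.67 reads in the untreated library and 6.12 reads with LPS. Fold differences below carry 95% intervals (Clopper-Pearson) from reads estimated in this way, which cover counting error only and not the spread between cultures. By these intervals, 278 of the 289 higher genes with an annotated length and 855 of the 884 lower ones were clear of equal levels. A listed 0 gives no ratio and no direction. Among genes at or above the filter, 2371 were listed at 0 in the untreated library only, 785 with LPS only and 570 in both, abundant genes among them: Eef1a1, the translation elongation factor, made up 2.82% of the untreated library at 5641 FPKM and was listed at 0 with LPS.

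The receptor side of the pathway was only partly measured. Of its 3 members with a ratio, 2 were at least 2-fold lower with LPS, beside 26.2% of all genes. Cd14, the LPS co-receptor, was listed at 303 FPKM without LPS and at 0 with it, whereas Ly96, which encodes MD-2, was listed at 0 and 65.2 FPKM. Tlr4 was not analysed here, and Myd88 was listed at 0 in both libraries. Of 14 listed receptor, adaptor and kinase genes found in the tables, 3 had a ratio, with a median of -1.10, or -0.70 relative to all genes. Ticam1, which encodes TRIF, stood at 18.0 FPKM untreated and 7.84 FPKM with LPS, 2.29-fold lower (1.71 to 3.10). Tab1, a subunit of the TAK1 kinase complex, stood at 3.16 and 0.244 FPKM (log2 ratio -1.74), and Irak2, a kinase that joins MyD88, at 39.6 and 29.0 FPKM (-0.44). Under median-of-ratios scaling, upper-quartile scaling or after the median was subtracted, 1 of the 3 was at least 2-fold lower. Among other pattern receptors, Nod2 had a log2 ratio of 0.60 and Tlr13 of -0.08.

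Genes that restrain NF-kB signalling differed in direction. Irak3, a kinase-dead relative that blocks the MyD88 complex, stood at 14.9 FPKM untreated and 59.3 FPKM with LPS, 3.99-fold higher (3.29 to 4.86). Tnip3, which binds the ubiquitin editor A20, was also higher (1.61 and 5.79 FPKM, log2 ratio 1.38). The deubiquitinase gene Otud1 was lower, at 15 and 4.61 FPKM (-1.51). The subunit gene Rela (0.53) and the co-regulator gene Bcl3 (0.33) lay within 2-fold. Over the 5 members with a ratio, the median was 0.53, or 0.93 relative to all genes. Nfkbia, the first inhibitor that NF-kB induces, was listed at 85.8 FPKM untreated and at 0 with LPS, and Nfkbiz and Nfkbie were listed at 0 untreated and at 30.3 and 32.2 FPKM with LPS. Tnfaip3, which encodes A20, was not analysed here.

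Genes of the ZFP36 family, whose proteins bind AU-rich elements and speed the decay of cytokine mRNAs, were lower where both levels were above 0. Zfp36l1 stood at 107 FPKM untreated and 14.7 FPKM with LPS, 7.23-fold lower (5.99 to 8.79), and Zfp36l2 at 51.7 and 22.3 FPKM, 2.32-fold lower (1.98 to 2.72). Zfp36l2 was within 2-fold after any of the rescalings. The best known member, Zfp36, was listed at 0 untreated and at 155 FPKM with LPS. Socs3, an inhibitor of STAT3 signalling, stood at 42.0 and 225 FPKM, 5.36-fold higher (4.75 to 6.06), while Socs1 (5.16 and 5.28 FPKM) and Socs2 (5.66 and 5.03 FPKM) were nearly level. Stat3 itself had a log2 ratio of -0.49.

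Of 25 inflammatory cytokine genes in the tables, 5 had a ratio, 4 of them at least 2-fold higher and 1 lower, with a median of 2.25, or 2.66 relative to all genes. Csf2, the gene of GM-CSF, stood at 5.84 FPKM untreated and 92.6 FPKM with LPS, 15.9-fold higher (8.62 to 32.4). Il23a, the private subunit of IL-23, stood at 1.23 and 17.8 FPKM, 14.5-fold higher (5.88 to 46.3). Il27 rested on far fewer reads, at 1.19 and 6.48 FPKM, with an interval of 1.54 to 29.3 around 5.43-fold. Il23a and Il27 met the filter only through their LPS levels, so their direction was fixed by it. Tnf, at 54.6 and 264 FPKM, was 4.83-fold higher with the narrow interval of an abundant transcript (4.19 to 5.59). Under each of the 3 rescalings, 4 members were likewise at least 2-fold higher and 1 lower.

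The lower cytokine gene was Ltb, which encodes lymphotoxin beta, a membrane cytokine known from lymphocytes. It stood at 64.6 FPKM untreated and 3.47 FPKM with LPS, 18.6-fold lower (9.90 to 39.4). The 2 B cell markers and 1 T cell marker with a ratio were lower as well, with values given below. Il1b, the gene of the pyrogenic cytokine IL-1β, was listed at 11441 FPKM with LPS, 5.71% of that library and its most abundant transcript, and at 0 untreated. Other members with a listed 0 have no ratio either. Tgfb1 (364 FPKM), Tnfsf9 (33.9 FPKM) and the anti-inflammatory Il10 (17.1 FPKM) were listed at 0 untreated, whereas Csf3 (80.2 FPKM) and Osm (41.8 FPKM) were listed at 0 with LPS. Il6, Il1a, Il12b and Ifnb1 were listed at 0 in both libraries.

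Chemokine genes stood higher with LPS. Of 20 in the tables, 8 had a ratio. Past 2-fold, 6 of these were higher and 0 lower, with a median of 1.46, or 1.87 relative to all genes. Cxcl10, the interferon-inducible attractant of activated T cells, stood at 2.53 and 24.7 FPKM, 9.77-fold higher (4.48 to 25.3). Pf4, platelet factor 4, which resident macrophages also make, stood at 106 and 702 FPKM, 6.62-fold higher (5.45 to 8.10). The T cell and monocyte attractant Ccl5 stood at 292 and 1353 FPKM, 4.64-fold higher (4.06 to 5.31). Smaller ratios were those of the monocyte attractant Ccl7 (41.3 and 129 FPKM, log2 ratio 1.62), of Cxcl13, which draws B cells (44.7 and 112 FPKM, 1.31), and of the neutrophil attractant Cxcl5 (12.9 and 29.5 FPKM). Ccl22 (0.98) and Cxcl14 (0.69) lay just within 2-fold. Ccl2 (107 FPKM), Ccl9 (58.7 FPKM), Ccl6 (31.9 FPKM) and Cxcl16 (31.4 FPKM) were listed at 0 with LPS and have no ratio, so the list covers only part of the family.

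**Figure D2:**
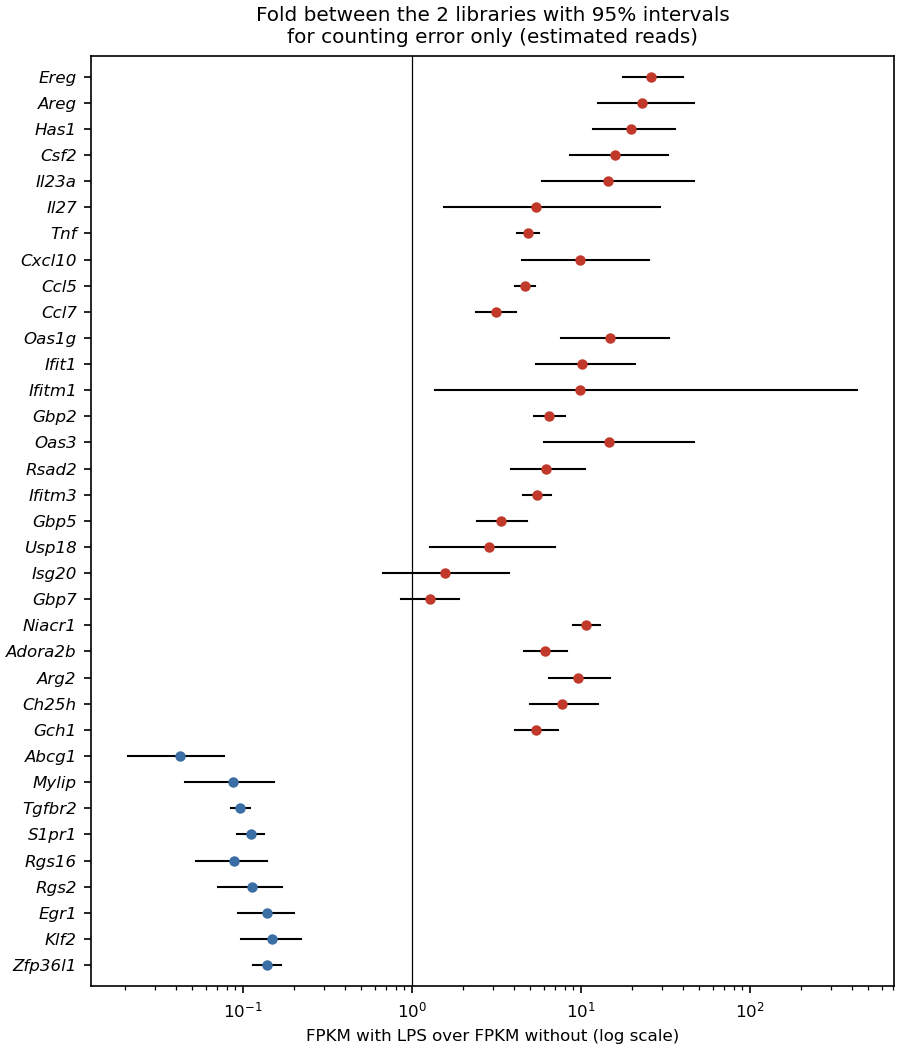
Ratio of the level with LPS to the untreated level (x axis, log scale) for 35 genes named in the text, with 95% intervals for counting error only and a line at equal levels. Red points are higher with LPS and blue points lower. The interval of Ifitm1 runs from 1.36 to 429.9, and those of Isg20 and Gbp7 include 1.

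Interferon-stimulated genes stood higher with LPS. Of 38 in the tables, 11 had a ratio, and past 2-fold 9 of these were higher and 0 lower, with a median of 2.14, or 2.55 relative to all genes. Oas1g, an oligoadenylate synthetase that senses double-stranded RNA, stood at 1.52 FPKM untreated and 22.5 FPKM with LPS, 14.8-fold higher (7.56 to 33.2). Its relative Oas3 stood at 0.343 and 5.06 FPKM (log2 ratio 2.17). Oas3 and Ifitm1 (0.635 and 6.23 FPKM) met the filter only through their LPS levels, so they could enter the count only as higher. Ifit1, which binds uncapped viral RNA, stood at 1.33 and 13.4 FPKM, 10.1-fold higher (5.41 to 20.9). Gbp2, a guanylate-binding protein of cell-autonomous defence, stood at 14.5 and 93.7 FPKM, 6.46-fold higher (5.27 to 7.98). All of these were low in the untreated library, with Gbp2 the highest.

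Of the IFITM genes, whose membrane proteins block virus entry, Ifitm3 and Ifitm2 started from higher levels. Ifitm3 stood at 92.4 and 505 FPKM, 5.47-fold higher (4.53 to 6.64), and its neighbour Ifitm2 at 92.1 and 749 FPKM, 8.14-fold higher (6.74 to 9.90). These paralogs resemble each other closely, and how shared reads were counted is not given in the sources used here. Rsad2, the gene of viperin, stood at 1.70 and 10.5 FPKM, Gbp5 at 5.11 and 17.1 FPKM (log2 ratio 1.57) and Usp18, a brake on interferon receptor signalling, at 1.81 and 5.15 FPKM (1.13). Isg20 (0.55) and Gbp7 (0.27) lay within 2-fold, with counting intervals that include equal levels. Members listed at 0 have no ratio: Isg15 (34.7 FPKM), Slfn2 (181 FPKM), Bst2 (17.2 FPKM) and Ifi205 (17.0 FPKM) were listed at 0 with LPS, and Oas1a was listed at 0 untreated and at 59.7 FPKM with LPS. The factor genes Irf2 (15.9 FPKM) and Irf8 (11.9 FPKM) were listed at 0 untreated, Irf7 (7.83 FPKM) at 0 with LPS, and Irf1 was not analysed here.

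Most of these interferon-stimulated genes, Gbp7 within 2-fold among them, held the same motif before their start. The list names known interferon targets, so the share of the motif in it is not a result about LPS. The motif GAAANNGAAA, the core of the interferon-stimulated response element, was searched on both strands in the 250 bases before each gene's RefSeq start (GRCm38.p6). It lay in 7 of the 10 list members with a ratio and a promoter in the RefSeq table (70.0%), in 16 of 224 genes at least 2-fold higher (7.14%), in 3.34% of those at least 2-fold lower, in 2.90% of those within 2-fold, and in 936 of all 27025 promoters (3.46%). Below are the promoters of 4 genes that hold it, Cxcl10 being from the chemokine list. They are given on the gene's own strand from 5′ to 3′, with the motif and, in Cxcl10, the kB consensus in capitals. They lie at chr5:92348890-92349139 on the minus strand, chr19:34640639-34640888 on the plus strand, chr5:120887614-120887863 on the minus strand and chr3:142620413-142620662 on the plus strand. A match is a description of the letters and not a bound site.
Cxcl10: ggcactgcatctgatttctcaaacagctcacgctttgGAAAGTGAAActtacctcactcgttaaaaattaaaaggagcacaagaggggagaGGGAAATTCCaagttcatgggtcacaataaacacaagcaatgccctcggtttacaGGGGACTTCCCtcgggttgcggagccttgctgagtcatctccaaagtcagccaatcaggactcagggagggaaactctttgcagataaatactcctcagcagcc
Ifit1: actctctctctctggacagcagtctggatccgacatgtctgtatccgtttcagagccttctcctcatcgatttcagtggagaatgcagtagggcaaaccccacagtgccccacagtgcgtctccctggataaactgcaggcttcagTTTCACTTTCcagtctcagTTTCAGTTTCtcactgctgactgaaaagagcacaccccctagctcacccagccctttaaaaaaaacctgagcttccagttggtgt
Oas1g: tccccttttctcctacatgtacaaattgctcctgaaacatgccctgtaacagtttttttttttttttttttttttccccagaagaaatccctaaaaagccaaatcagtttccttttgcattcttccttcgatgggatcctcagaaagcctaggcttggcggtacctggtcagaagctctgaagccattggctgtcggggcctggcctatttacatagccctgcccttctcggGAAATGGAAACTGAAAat
Gbp2: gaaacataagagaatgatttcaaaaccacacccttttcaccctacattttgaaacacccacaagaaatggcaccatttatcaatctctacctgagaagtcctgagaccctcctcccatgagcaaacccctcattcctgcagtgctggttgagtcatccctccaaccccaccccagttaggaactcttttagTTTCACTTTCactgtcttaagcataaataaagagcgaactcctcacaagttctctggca

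In Ifit1 the motif occurred at 104 to 95 and at 85 to 76 bases before the start, and in Gbp2 at 59 to 50 bases before it. In Oas1g a pair of overlapping matches lay at 18 to 9 and 12 to 3 bases before the start, and they share 4 of their letters. Cxcl10 held the motif 213 to 204 bases before its start and the kB consensus, the binding sequence of NF-kB, 159 to 150 bases before it. Another pair of overlapping kB matches lay at 104 to 95 and 103 to 94 bases. In this window the kB consensus lay in 11.2% of higher genes, 9.87% of lower genes and 8.23% of all promoters. It also lay in 4 of the 10 interferon-stimulated promoters (40.0%). Another motif searched, the AP-1 sequence TGANTCA, lay in 4 of these 10 as well (40.0%), beside 7.82% of all promoters.

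With small RNAs and predicted gene models left out, the largest log2 ratios belonged to secreted growth factors of the EGF family. These bind the EGF receptor on epithelium and fibroblasts. Areg (amphiregulin) stood at 3.47 FPKM untreated and 79.1 FPKM with LPS, 22.8-fold higher (12.5 to 46.2). Ereg (epiregulin), its neighbour on chromosome 5, stood at 2.0 and 51.9 FPKM, 26.0-fold higher (17.6 to 40.1). Hbegf stood at 0.149 and 5.86 FPKM, and its untreated level was too low to bound the ratio closely (6.65 to 1595). Of 7 growth factor genes with a ratio, 3 lay past 2-fold on the higher side and 0 on the lower, with a median of 0.97, or 1.37 relative to all genes. Bmp2 (0.97), Pdgfa (0.91) and Pdgfb (0.84) lay near 2-fold and Wnt2 at -0.09, and under each of the rescalings 6 of the 7 were higher past 2-fold. Hbegf and Bmp2 met the filter only through their LPS levels, so their direction was fixed by it. Gdf15, a stress-induced TGF-β relative, was listed at 0 untreated and at 147 FPKM with LPS, and Vegfa at 24.7 FPKM untreated and at 0 with LPS.

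Has1, a hyaluronan synthase, came next by log2 ratio (3.82), though not by plain fold, at 2.38 and 46.8 FPKM, 19.7-fold higher (11.7 to 35.7). The promoters of Areg and Has1 each hold the palindrome TGACGTCA, the cAMP response element, at 61 to 54 and 83 to 76 bases before the start. It was searched on both strands in the same windows and lay in 5 of 54 genes at least 4-fold higher (9.26%), 1.39% of those at least 4-fold lower, 2.92% of the 2708 genes with a ratio and a promoter, and 1.77% of all promoters, so the first share rests on few genes. The same motif lay in 3.57% of genes at least 2-fold higher and 2.90% of those at least 2-fold lower. The other motifs searched were more frequent than TGACGTCA in the same 54 promoters. TGANTCA lay in 9 (16.7%, beside 4.76% of genes with a ratio) and GAAANNGAAA in 9 (16.7%, beside 3.36%). The kB consensus lay in 8 (14.8%, beside 9.23%). The sequences, on the gene's strand with the motif in capitals, lie at chr5:91139349-91139598 on the plus strand and chr17:17855189-17855438 on the minus strand.
Areg: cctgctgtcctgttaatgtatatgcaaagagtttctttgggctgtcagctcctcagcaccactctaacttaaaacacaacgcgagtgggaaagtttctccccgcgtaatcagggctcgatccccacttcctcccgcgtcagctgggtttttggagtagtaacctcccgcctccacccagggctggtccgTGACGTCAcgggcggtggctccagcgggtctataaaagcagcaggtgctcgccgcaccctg
Has1: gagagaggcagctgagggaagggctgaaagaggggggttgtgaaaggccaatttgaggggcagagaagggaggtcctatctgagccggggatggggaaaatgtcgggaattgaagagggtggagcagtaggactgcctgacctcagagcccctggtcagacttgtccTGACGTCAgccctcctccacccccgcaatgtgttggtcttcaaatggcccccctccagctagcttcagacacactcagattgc

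The remaining genes among the 15 largest log2 ratios were varied in role. Csrp2, a LIM-domain protein, stood at 1.40 and 21.9 FPKM (15.6-fold, 6.41 to 49.5) and Cdc42ep2, an effector of CDC42, at 3.61 and 33.2 FPKM (9.20-fold, 6.56 to 13.2). Prok2, a secreted chemoattractant-like peptide, stood at 0.662 and 13.3 FPKM (20.1-fold, 6.47 to 101), and the glutamate transporter gene Slc1a2 at 0.325 and 9.17 FPKM (28.2-fold, 7.43 to 239). The untreated levels of Prok2 and Slc1a2 correspond to an estimated 3 and 2 reads, and both genes met the filter only through their LPS levels. Ier3, an immediate-early survival gene, was by contrast abundant, at 123 and 845 FPKM, 6.90-fold higher (6.17 to 7.73).

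Receptors and regulators of G-protein signalling held large ratios in both directions. Of 8 with a ratio, 2 were at least 2-fold higher and 6 lower, and none lay within 2-fold. Niacr1 (Hcar2), the receptor for niacin and β-hydroxybutyrate, stood at 21.9 and 235 FPKM, 10.7-fold higher (8.92 to 13), and the adenosine receptor gene Adora2b at 10.8 and 65.7 FPKM, 6.09-fold higher (4.58 to 8.22). S1pr1, the receptor that guides lymphocyte egress, stood at 150.2 and 16.6 FPKM, 9.04-fold lower (7.60 to 10.8). The 3 Rgs genes with a ratio, which speed the shut-off of G proteins, were lower too: Rgs16 stood at 35.0 and 3.08 FPKM (log2 ratio -3.14), Rgs2 at 26.3 and 2.94 FPKM (-2.79) and Rgs18 at 1.96 and 0.364 FPKM (-1.12). Rgs1 was listed at 0 untreated and at 10.8 FPKM with LPS. Nt5e, the ecto-enzyme that makes adenosine (-1.54), was also lower. After the median was subtracted, 5 members were at least 2-fold lower, and 4 were under median-of-ratios scaling. The chemotactic receptor genes Fpr1 (64.3 FPKM) and Fpr2 (29.9 FPKM) were listed at 0 with LPS.

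Cytokine receptors were mixed: past 2-fold, 3 of 7 were higher and 2 lower, beside 8.51% and 26.2% of all genes. The count of lower receptors thus lay near the share of all genes. Tgfbr2, the type II TGF-β receptor, stood at 159 FPKM untreated and 15.3 FPKM with LPS, 10.4-fold lower (9.13 to 11.8). The chemokine receptor gene Ccr1 (log2 ratio -0.63) and Ifngr1, a chain of the interferon gamma receptor (-0.81), lay within 2-fold. Tnfrsf1a, the main TNF receptor, stood at 21.8 and 74.0 FPKM, 3.39-fold higher (2.79 to 4.13), Il13ra1 at 0.748 and 3.59 FPKM (1.39) and Il1rap, the shared IL-1 receptor chain, at 2.77 and 7.04 FPKM (1.09). The other TNF receptor, Tnfrsf1b, was listed at 130.1 FPKM untreated and at 0 with LPS. Smad7, the inhibitor that TGF-β itself induces, stood at 13.1 and 0.753 FPKM, 17.3-fold lower (8.92 to 38.5).

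Of 13 immediate-early genes with a ratio at 5 h, Ier3 was at least 2-fold higher and 4 were lower. Their median was -0.61, or -0.21 relative to all genes. Over all genes, 8.51% were higher and 26.2% lower, so these counts lay near the overall shares. The zinc-finger factor genes Egr1 (27.7 and 3.84 FPKM, 7.21-fold lower, 5.01 to 10.7) and Egr2 (30.7 and 5.27 FPKM, 5.83-fold lower, 4.23 to 8.20) were among the lower ones. So was Klf2, a factor that holds macrophages quiescent, at 39.4 and 5.87 FPKM, 6.71-fold lower (4.53 to 10.3). Btg2, an antiproliferative gene, stood at 113 and 27.4 FPKM (log2 ratio -2.0). Under median-of-ratios scaling 3 members were higher and 4 lower, and under the other rescalings 2 and 4. Fos (4.21 and 2.99 FPKM) and Jun (20.3 and 20.9 FPKM) differed little, whereas Junb (197 FPKM), Klf6 (68.3 FPKM) and Fosl2 (65.2 FPKM) were listed at 0 untreated.

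Among MAP kinase phosphatases, Dusp10 stood at 21.7 and 1.11 FPKM, 19.5-fold lower (10.1 to 43.4), and Dusp8 at 0.403 and 2.76 FPKM, 6.86-fold higher (2.88 to 19.8). Spry1, an inhibitor of receptor tyrosine kinase signalling in the same list, was higher as well. Dusp8 and Spry1 met the filter only through their LPS levels, so their direction was fixed by it. Dusp1 (0.38), Dusp6 (0.39) and Gadd45b (0.03) lay within 2-fold. Of the macrophage transcription factors, Ets2 stood at 31.1 and 105 FPKM (1.72) and Cebpd at 1.67 and 6.15 FPKM (1.42). Id3, an inhibitor of basic helix-loop-helix factors, stood at 42.7 and 5.49 FPKM (-2.75). Cebpa lay within 2-fold (-0.48), and Cebpb was listed at 89.3 FPKM untreated and at 0 with LPS.

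Several secreted defence genes, some chosen after their values were seen, were higher. Hp, the gene of haptoglobin, stood at 42.8 FPKM untreated and 199 FPKM with LPS, 4.65-fold higher (3.90 to 5.57). Lcn2, which withholds iron from bacteria, stood at 64.1 and 272 FPKM (4.25-fold, 3.52 to 5.14), and S100a8, a calprotectin subunit, at 48.1 and 222 FPKM (4.61-fold, 3.22 to 6.75). Ptx3, a long pentraxin, stood at 0.940 and 7.81 FPKM (8.30-fold, 3.27 to 27.0), and the serum amyloid gene Saa1 at 1.95 and 18.9 FPKM (9.66-fold, 2.36 to 84.9). Ptx3 met the filter only through its LPS level. Lcn2 and S100a8 are also neutrophil markers. Over the 4 members of that list with a ratio the summed level was 115 FPKM untreated and 496 FPKM with LPS, and Mmp8 was lower (2.48 and 0.548 FPKM). Elane, Ltf and Cxcr2 were listed at 0 in both libraries, which gives no level, and the part of neutrophils in these values was not tested. The metallothionein gene Mt1 stood at 136 and 410.3 FPKM (log2 ratio 1.59), the peroxidase gene Gpx1 at 125 and 44.1 FPKM (-1.49) and the transferrin receptor gene Tfrc at 29.8 and 10.7 FPKM (-1.40). Phlda1 (2.08) and Tnfaip2 (2.26) were higher as well.

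Of 6 complement and coagulation genes with a ratio, 3 were at least 2-fold higher and 1 lower. C5ar1, the receptor for the anaphylatoxin C5a, stood at 33.8 and 175 FPKM, 5.19-fold higher (4.53 to 5.97). The complement gene C1qa stood at 59.4 and 209 FPKM (log2 ratio 1.80). Thbd, the anticoagulant thrombomodulin, was lower, at 6.72 and 2.03 FPKM (-1.35), but within 2-fold under median-of-ratios scaling and after the median was subtracted. F3, tissue factor, which starts coagulation, was listed at 0 untreated and at 65.3 FPKM with LPS. C1qb (129.6 FPKM) and C1qc (83.2 FPKM), the partners of C1qa, were listed at 0 with LPS.

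Genes for the uptake of dying cells were level or higher with LPS, 4 of 10 being past 2-fold higher and 0 past 2-fold lower, and with a median of 0.64, or 1.04 relative to all genes. Besides C1qa these were the bridging proteins Mfge8 (7.70 and 21.1 FPKM, log2 ratio 1.35) and Pros1 (5.14 and 14 FPKM, 1.29) and the phosphatidylserine receptor gene Timd4 (3.29 and 7.74 FPKM, 1.03). The receptor tyrosine kinase gene Axl lay at -0.34. In the repair list, 4 of 11 were higher and 2 lower, beside 8.51% and 26.2% of all genes. The collagenase gene Mmp13 stood at 35.4 and 189.6 FPKM, 5.36-fold higher (4.72 to 6.11), Mmp9 at 2.15 and 7.22 FPKM (1.38) and osteopontin, Spp1, at 63.6 and 154 FPKM (1.26). Chi3l3, a chitinase-like marker of alternative activation, had a ratio of 1.06, and Gpnmb, a lysosomal glycoprotein, of -1.01.

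Arginine use differed between the arginase paralogs. Arg2, the mitochondrial arginase, stood at 6.94 and 66.8 FPKM, 9.62-fold higher (6.45 to 14.9), whereas Arg1, the cytosolic one, stood at 13.7 and 19.1 FPKM, with an interval that includes equal levels (0.972 to 2.02 around 1.40). Gch1, which makes the nitric oxide synthase cofactor tetrahydrobiopterin, stood at 6.90 and 37.3 FPKM, 5.41-fold higher (4.07 to 7.31). Nos2, which encodes the inducible nitric oxide synthase, stood at 0.442 and 1.76 FPKM and did not reach the filter. The transporter gene Slc7a1 (0.33) and Odc1, the first enzyme of polyamine synthesis (-0.04), lay within 2-fold.

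Of 7 eicosanoid genes with a ratio, 3 were at least 2-fold higher and 1 lower. Alox5, the leukotriene-forming lipoxygenase, stood at 0.235 and 3.42 FPKM (log2 ratio 1.84), and the receptor genes Ptgir (12.3 and 35.0 FPKM, 1.44) and Ptger2 (2.2 and 7.77 FPKM, 1.45) were higher. Ptger4, the other receptor for prostaglandin E coupled to cAMP, was lower (6.96 and 2.14 FPKM, -1.34), but within 2-fold under median-of-ratios scaling or once the median was subtracted. Ptgs2, the inducible cyclooxygenase, was listed at 218 FPKM untreated and at 0 with LPS. With a listed 0, that value gives no direction, and Pla2g4a (20.2 FPKM) and Alox15 (12.3 FPKM) were listed the same way.

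Cholesterol handling held ratios at both extremes. Ch25h, which makes the antiviral sterol hydroxycholesterol, stood at 6.16 and 47.5 FPKM, 7.71-fold higher (4.96 to 12.5), and the apolipoprotein gene Apoc1 at 29.0 and 195 FPKM, 6.73-fold higher (4.27 to 11.1). The sterol transporter gene Abcg1, a target of the sterol-sensing receptor LXR, stood at 14.9 and 0.630 FPKM, 23.7-fold lower (13.1 to 48.1). Mylip, an LXR target that degrades the LDL receptor, stood at 17.3 and 1.5 FPKM, 11.5-fold lower (6.55 to 22.1). Lipa (0.39), Npc2 (0.38) and Nceh1 (-0.91) lay within 2-fold. Among 12 sterol and fatty acid synthesis genes, Fads1 was at least 2-fold higher (1.03), Elovl5 at least 2-fold lower (-1.0), and Fdps (0.89) and Cyp51 (0.82) were next.

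Energy metabolism genes mostly lay within 2-fold, as did 2234 of all 3421 genes, of which 8.51% were higher and 26.2% lower. In glucose uptake and glycolysis, 1 of 11 was at least 2-fold higher, the transporter gene Slc2a1 (48.0 and 139 FPKM, 2.91-fold, 2.61 to 3.23), and 3 were lower. These were Pdk1, the kinase that shuts off pyruvate dehydrogenase (7.76 and 0.834 FPKM, 9.31-fold lower, 5.25 to 18.0), the transporter gene Slc2a3 (2.93 and 0.828 FPKM, log2 ratio -1.10) and Tpi1 (64.3 and 30.2 FPKM, -1.06). The counts of this list thus lay near the shares of all genes. Ldha, which makes lactate, stood at 276 and 529 FPKM and its exporter gene Slc16a3 at 12.7 and 25.3 FPKM, both at 0.94. Once the median was subtracted, 5 were higher and 1 lower. Slc2a6 (181 FPKM) and Hk2 (25 FPKM), a hexokinase, were listed at 0 untreated. In the pentose phosphate and NADPH list, Me1 (1.02) and G6pdx (0.94) had the largest ratios of 4.

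Mitochondrial lists were close to the median of all genes or above it, and the sign of their medians turned with the scaling. The 9 TCA cycle genes all lay within 2-fold, with a median of -0.42, or 0.19 under median-of-ratios scaling, from Suclg1 at -0.93 to Mdh2 at 0.45. Of 11 fatty acid oxidation genes, Acsl4 was at least 2-fold higher (19.8 and 59.3 FPKM), and Eci1 (17.6 and 6.04 FPKM) and Acaa2 (6.6 and 1.98 FPKM) were lower. Nuclear genes of complex I had a median of -0.08 over 16 members, with Ndufv3 (-1.27), Ndufb10 (-1.18) and Ndufs7 (-1.16) at least 2-fold lower. Under median-of-ratios scaling that median was 0.53, and 0 members were lower under any of the rescalings. Those of complexes II to V had a median of -0.05 over 24 members, and Cycs, cytochrome c, was past 2-fold (20.3 and 42.3 FPKM, 1.03).

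Ribosomal protein genes lay together in these libraries. All 43 with a ratio had a ratio below 0, from -1.53 (Rpl3, 878 and 304 FPKM) to -0.13 (Rpl7a, 1378 and 1264 FPKM), with a median of -0.99. Of these, 21 were at least 2-fold lower, beside 26.2% of all genes. Rps7 (1051 and 368 FPKM, -1.51) and Rpsa (1215 and 439.6 FPKM, -1.46) were next to Rpl3. The median stayed below 0 but the count did not hold under rescaling: 5 were lower after the median was subtracted (-0.58), 6 after upper-quartile scaling (-0.65) and 0 after median-of-ratios scaling (-0.36). Another 14 members were listed at 0 untreated only, and these include abundant genes such as Rpl35, at 1879 FPKM with LPS. Reads of ribosomal pseudogenes may not be separated. Among 8 translation factors, Eif3g was at least 2-fold lower (84.5 and 39.4 FPKM, -1.08), and the median was -0.38, or 0.02 relative to all genes.

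**Figure D3:**
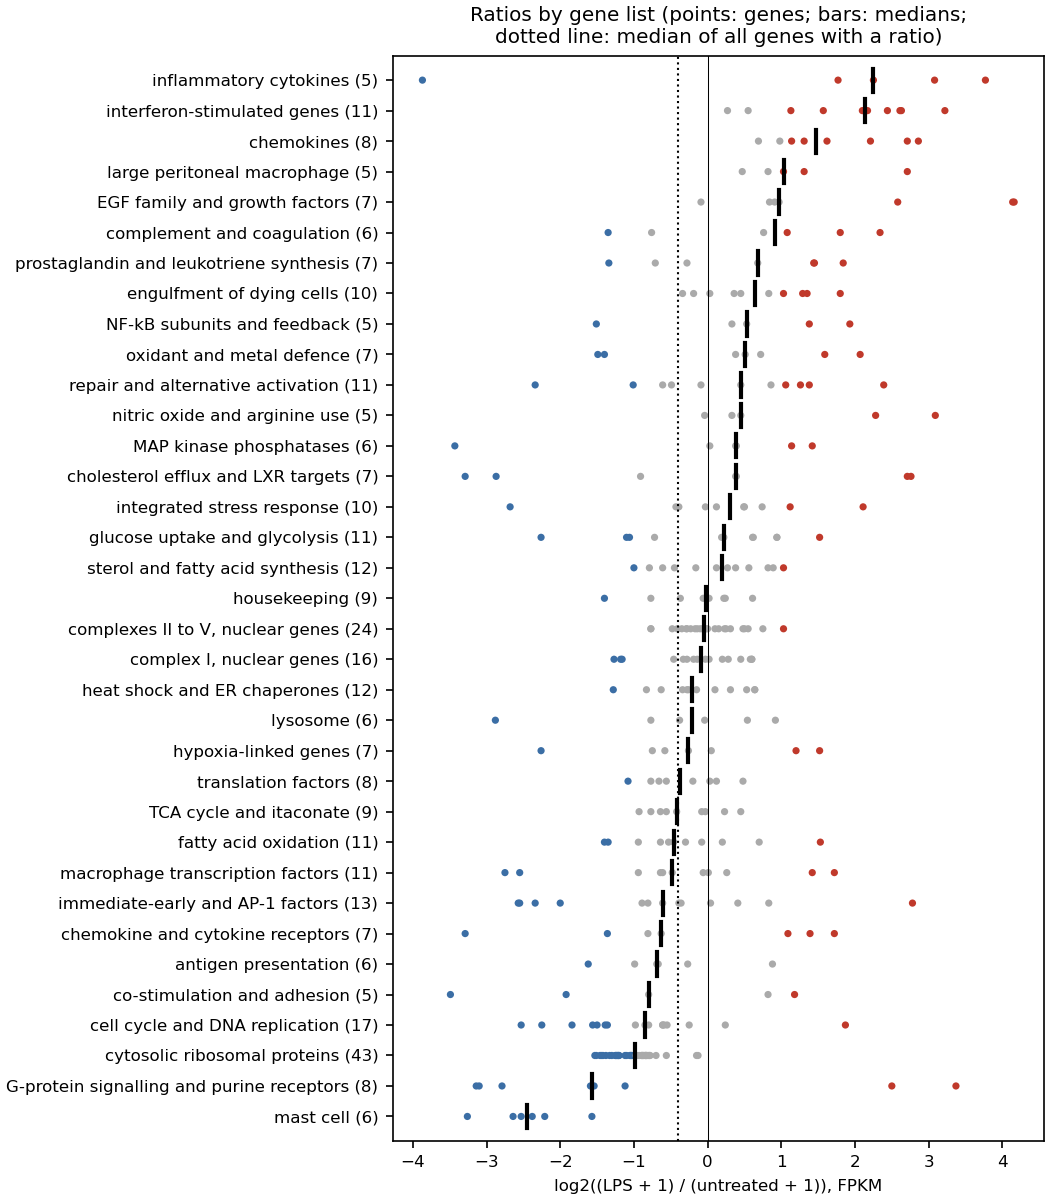
Log2 ratios of LPS to untreated (x axis) for the genes of each list with at least 5 ratios, with the number of genes in parentheses. Points are genes (red at least 2-fold higher, blue at least 2-fold lower, grey within 2-fold), bars are list medians and the dotted line is the median of all genes, -0.40. Cytokine and interferon-stimulated genes lie at the top and mast cell genes at the bottom.

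Of 10 integrated stress response genes with a ratio, 2 were higher past 2-fold and 1 lower, or 5 and 1 under median-of-ratios scaling. In this list the amino acid transporter chain gene Slc3a2 stood at 207 and 896 FPKM, 4.34-fold higher (4.09 to 4.6), the serine synthesis gene Psat1 at 35.6 and 78.5 FPKM (log2 ratio 1.12), and the mTOR inhibitor gene Ddit4 at 69.5 and 9.99 FPKM (-2.68). Atf4, the factor at its centre, was level (245 and 240 FPKM). Among genes outside the lists, chosen after their values were seen, Tsc22d3 stood at 37.0 and 2.08 FPKM, 17.8-fold lower (9.44 to 37.6), and Fkbp5 at 17.7 and 4.24 FPKM, 4.17-fold lower (2.99 to 5.95). Txnip, an inhibitor of glucose uptake, stood at 85.4 and 18.6 FPKM (-2.14). Chaperone genes had a median of -0.21 over 12 members and 1 at least 2-fold lower, Hspa1a (4.35 and 1.20 FPKM). Under median-of-ratios scaling their median was 0.40, with 3 higher and 0 lower. Surf4, a cargo receptor of the secretory pathway, stood at 155 and 679 FPKM, 4.40-fold higher (4.16 to 4.65).

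Of 17 cell cycle genes with a ratio, 7 were at least 2-fold lower and 1 higher, beside 26.2% and 8.51% of all genes. Their median was -0.85, or -0.44 relative to all genes. The higher one was the cell cycle inhibitor gene Cdkn1a, at 41.9 and 156 FPKM, 3.72-fold higher (3.12 to 4.46). Cdkn2b, an inhibitor outside the list and chosen after its value was seen, stood at 6.58 and 30.9 FPKM (log2 ratio 2.07). Within the list, Cdkn2c stood at 9.17 and 0.763 FPKM (-2.53). The replication helicase genes Mcm6 (30.5 and 5.62 FPKM, -2.25) and Mcm4 (7.38 and 1.85 FPKM, -1.56), the cyclin genes Ccne1 (-1.84) and Ccna2 (-1.50), Birc5 (-1.39) and Plk1 (-1.36) were lower. After median-of-ratios scaling, or once the median was subtracted, 5 were lower. Housekeeping genes, by comparison, had a median of -0.02 over 9 members, or 0.60 after median-of-ratios scaling, with Gapdh at 436 and 508 FPKM, Actb at 1304 and 1011 FPKM, and Tfrc lower past 2-fold.

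Antigen presentation and adhesion genes were mixed. The immunoproteasome gene Psmb9 was lower (44.2 and 13.7 FPKM, log2 ratio -1.62), Tap1 lay at -0.99 and Psme2 at 0.88. The MHC class II genes H2-Aa (308 FPKM) and H2-Ab1 (260.5 FPKM) were listed at 0 untreated. The checkpoint ligand gene Pdcd1lg2 stood at 6.73 and 1.04 FPKM (-1.92). Itgax, the integrin CD11c, stood at 7.94 and 19.3 FPKM (1.18). Icam1 (56.6 FPKM) and Cd83 (39.9 FPKM) were listed at 0 untreated. Among cell death genes Pmaip1 was lower (-1.31), Pycard lay at -0.99 and Ripk3 at 0.10, and of the lysosome list the regulator gene Tfeb stood at 22.6 and 2.2 FPKM, 10.3-fold lower (5.93 to 19.2). In the hypoxia-linked list, Slc2a1 and the collagen hydroxylase gene P4ha2 (1.20) were higher and Pdk1 was lower.

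With small RNAs and predicted gene models left out, the 3 lowest ratios belonged to genes outside the lists. Atp1b1, a subunit of the sodium pump, stood at 100.4 FPKM untreated and 1.19 FPKM with LPS, 84.0-fold lower (44.0 to 185). Sbk1, a serine kinase, stood at 81.8 and 1.87 FPKM, 43.7-fold lower (28.7 to 70.0), and N4bp3 at 30.2 and 0.328 FPKM, 92.2-fold lower on an estimated 2 reads with LPS (25.2 to 766). Lbh, a transcription cofactor, stood at 144 and 8.33 FPKM (log2 ratio -3.96) and the adaptor gene Bcar3 at 98.0 and 6.27 FPKM (-3.77). Mrgpre (-3.97), Tmem163 (-3.82), Fam117a (-3.72), the Wnt receptor gene Fzd6 (-3.71), Tcp11l2 (-3.65) and Foxo1 (-3.63) followed.

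Several of the lowest genes are known from lymphocytes. H2-Oa, a class II chaperone subunit typical of B cells, stood at 29.9 and 0.783 FPKM (log2 ratio -4.11), and the lymphocyte genes Thy1 (15 and 0.219 FPKM, -3.72), Cnr2 (14 and 0.191 FPKM, -3.66) and Dntt (13.5 and 0.160 FPKM, -3.64) were among the 15 lowest. Igj, the antibody joining chain, stood at 15.5 and 0.466 FPKM (-3.49), Napsa at 317 and 29.8 FPKM (-3.37), and the B cell signalling genes Plcg2 (-2.32) and Blnk (-2.10) at 68.1 and 12.8 FPKM and at 82.7 and 18.5 FPKM. Of the 14 B cell markers 2 had a ratio, and both were lower, Ly6d (563 and 73.9 FPKM, 7.62-fold, 6.26 to 9.36) and Cr2 (3.44 and 0.198 FPKM). Their summed level of 567 FPKM untreated and 74.1 FPKM with LPS was almost all Ly6d. Another 8 markers were listed at 0 untreated only and 2 with LPS only. The sums over all 14, 783 and 187 FPKM, count a listed 0 as 0 and so give no direction. Cxcr5 was listed at 214 FPKM untreated and at 0 with LPS. The defining markers Cd79a (33.6 FPKM), Cd79b (19.1 FPKM) and Ms4a1 (15.9 FPKM) were listed at 0 untreated, so they have no ratio. In RNA from a whole culture, fewer cells of a type and less RNA per cell cannot be told apart, and the part of these markers in the other lower genes, S1pr1 and Ltb among them, was not tested.

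Mast cell markers with a ratio were lower. All 6, of 9 in the tables, were at least 2-fold lower, with a median of -2.46, or -2.05 relative to all genes, and their summed level was 95.7 FPKM untreated and 10.1 FPKM with LPS. The protease genes Cma1 (36.4 and 2.89 FPKM, 12.6-fold, 5.88 to 32.1) and Tpsb2 (23.8 and 2.99 FPKM, 7.96-fold, 3.82 to 19.2) and the receptor gene Kit (8.19 and 0.588 FPKM, 13.9-fold, 7.12 to 31.1) had the largest differences. Mesothelial and fibroblast markers had 1 ratio, that of Dcn, decorin, at 11.4 and 0.942 FPKM. T cell markers also had 1, that of Cd4, at 3.48 and 0.195 FPKM. Of the 13 T cell markers, 6 were listed at 0 untreated only and 3 with LPS only, which gives no direction. The share of each cell type in the cultures was not measured, and its part in the lower genes was not tested.

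Macrophage markers gave an incomplete check of the label. Of 13, 6 were in the tables and 3 had a ratio, all within 2-fold. Csf1r, the receptor that defines the lineage, was listed at 56.3 FPKM untreated and at 0 with LPS, and Lgals3 at 0 and 137 FPKM. Markers of large peritoneal macrophages, the resident type, were not lower where they had a ratio: past 2-fold, 3 of 5 were higher and 0 lower, with a median of 1.03, or 1.43 relative to all genes. The higher ones, Cxcl13, Apoc1 and Timd4, also belong to pathway lists above. Cd9 stood at 357 and 630.5 FPKM, Vsig4 at 8.04 and 11.6 FPKM, and Gata6, the factor that defines these cells, was listed at 0 and 8.81 FPKM. Lyz1 (349 FPKM), F5 (29.6 FPKM) and Alox15 (12.3 FPKM) were listed at 0 with LPS. Of the 11 such markers in the tables, 4 were listed at 0 with LPS only and 2 untreated only, which gives no direction.

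**Figure D4:**
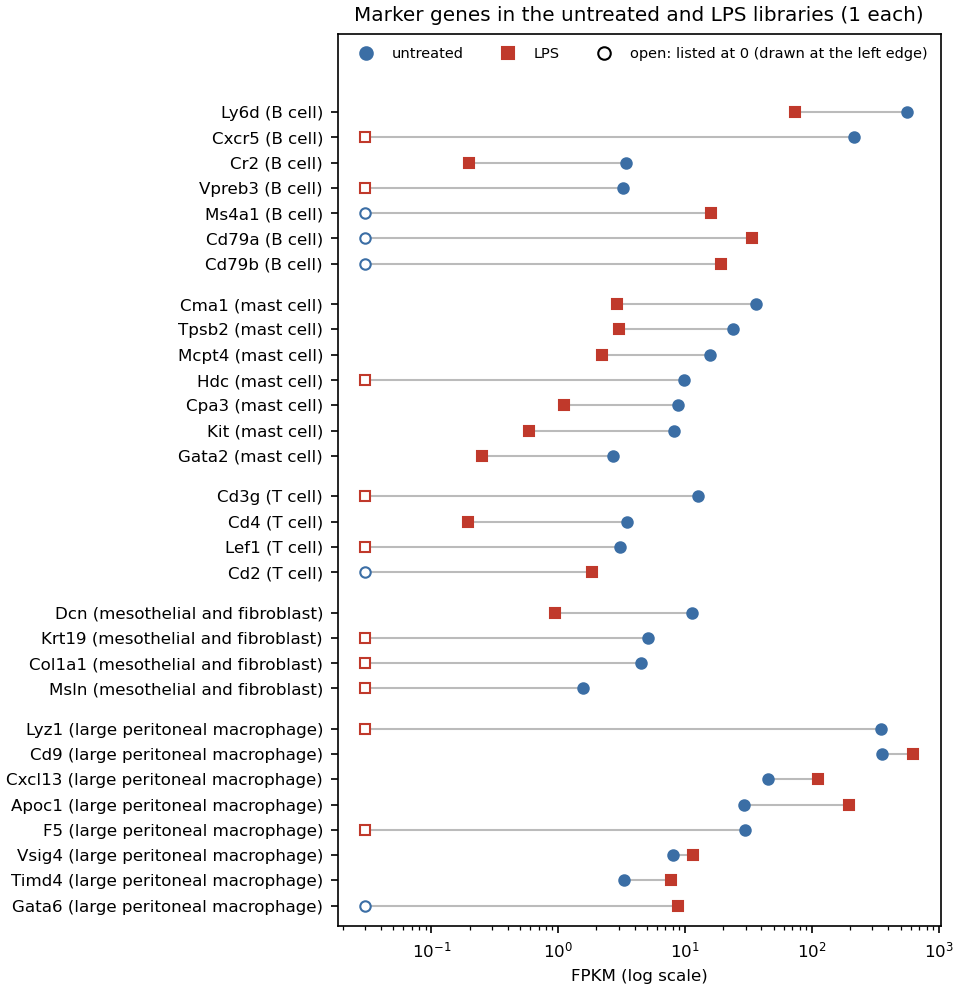
Level (x axis, FPKM, log scale) of cell type markers in the untreated library (circles) and with LPS (squares), with open symbols at the left edge for a listed 0. Of markers above 0 in both libraries, those of mast cells lie lower with LPS and those of large peritoneal macrophages higher, Cd9 at 357 and 630.5 FPKM.

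The share of lower genes depended on the level. Among the 1330 genes with a mean of 1 to 5 FPKM, 35.1% were at least 2-fold lower and 6.54% higher, with a median of -0.66. Among the 193 genes at 100 FPKM or more, 15.5% were lower and 18.7% higher, with a median of 0.20. Genes of the Zfp series, which encode zinc-finger proteins, were counted as a family because of their values. Of 111 with a ratio, 59 were at least 2-fold lower (53.2%) and 0 higher, with a median of -1.08, from Zfp362 at -3.37 to Zfp503 at 0.73. At a mean of 1 to 5 FPKM 59.0% of its 78 members were lower, beside 33.6% of the 1252 other genes of that level, and at 5 to 20 FPKM 33.3% of 30, beside 27.3% of 1137. The part of level in the family's share was not tested. After the median was subtracted 32 of the 111 were lower (28.8%) and 1 higher, with a median of -0.67, and after median-of-ratios scaling 29.6% of 108 were lower. Genes of the Slc series, solute carriers, had 9 of 53 higher and 7 lower.

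**Figure D5:**
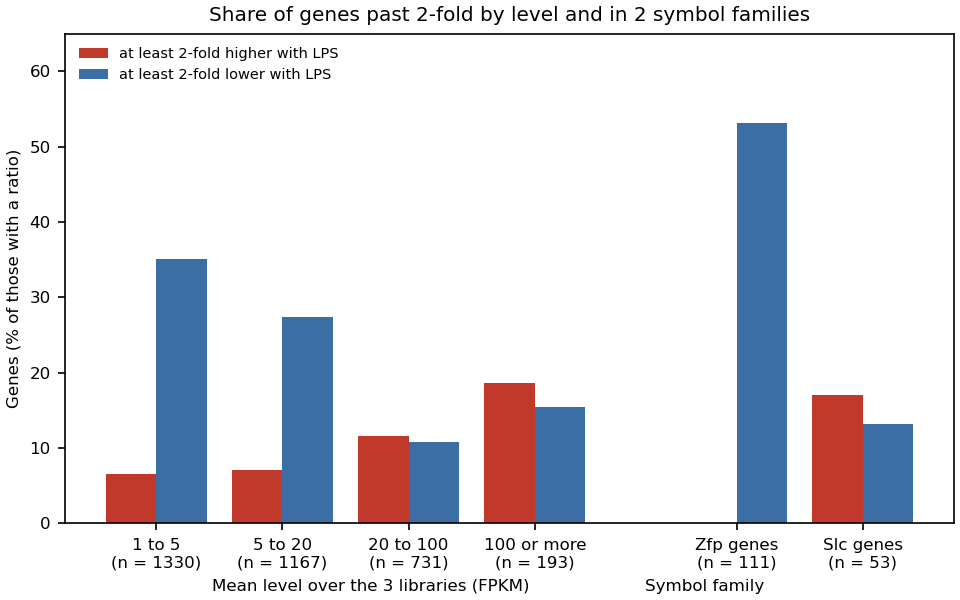
Share of genes (y axis, % of those with a ratio) at least 2-fold higher (red) or lower (blue) with LPS, by mean level and for the Zfp and Slc symbol series. Lower genes make up 35.1% at 1 to 5 FPKM and 15.5% at 100 FPKM or more, and 53.2% of the Zfp series.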

How the data were processed

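Per the labels, RNA from primary mouse peritoneal macrophages was sequenced in 3 libraries, 1 per condition, and p-values cannot be had. The deposited tables hold 1 value per gene symbol, taken as FPKM: their headers give no unit, but Cufflinks 2.2.1, Cuffdiff, TopHat2 2.1.0, cutadapt 1.14 and the build mm10 are named per the submitters' processing notes, and the values step with transcript length as FPKM does. The sources used here give no options, annotation or strandedness, so antisense genes and near-identical copies may share reads.

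Ratios, filter and 2-fold counts are as the report states. Depth was estimated from steps between low values of genes with 1 transcript, and 98.7% of the 3421 genes had a length in GENCODE M21, which gave gene positions. Of 1036 symbols in 40 pathway and 12 marker lists, 820 were in the tables. The members and lists were chosen with earlier results of these data known. Named genes are the 15 largest ratios in each direction, up to 6 per list by size of ratio, list members listed at 0 in 1 library and at 10 FPKM or more in the other, and a set of pathway genes. The ranking by ratio and the genes named at the 2-fold thresholds leave out small RNAs and predicted gene models, which the counts include. Further list members, the Zfp series and genes outside the lists were named after their values were seen. Some list members are counted but not reported here by name. Promoters are RefSeq's. The steps were tested on simulated data and run in Python 3.11.15 with pandas 2.3.3 and scipy 1.17.1. Alternatives were other pseudocounts, filters, fold thresholds and scalings, a listed 0 as a value, and genes above 0 in all 3 libraries.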

Additional observations from a re-analysis of the deposited data

How the results depend on the processing

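No paired analysis was possible because each condition has 1 library, and leaving out a library was not possible either. As reported, 291 genes were higher, 896 lower and the median log2 ratio was -0.40. The counts of higher and lower genes were 164 and 321 with a pseudocount of 5 FPKM (median -0.24), 543 and 1461 at 1.5-fold, 68 and 194 at 4-fold, and 535 and 485 after the median was subtracted. They were 650 and 436 after median-of-ratios scaling (median 0.12), 439 and 582 after upper-quartile scaling (-0.11), and 2605 and 1674 when a listed 0 entered as a value (0.00). Lower genes numbered 429 at a mean of at least 5 FPKM (median -0.26, with 204 higher) and 1418 after both libraries were rescaled to an equal, larger sum (-0.53, with 424 higher). The median was -0.48 with a pseudocount of 0.1 FPKM and -0.34 with no filter. The median of all genes thus changed sign under median-of-ratios scaling, and the cause was not tested. Of 41 list medians, 25 stayed within a set margin under median-of-ratios scaling and 30 under upper-quartile scaling, against 33 to 41 under the other alternatives. The margin was an interval of the median over the members. For the smallest lists it was a fixed log2 distance, which does not measure their spread. Of 242 named genes, 137 moved by more than their counting interval under median-of-ratios scaling and 94 under upper-quartile scaling. Of those past 2-fold 0 turned in direction. Both scalings shift ratios by less than the 2-fold threshold, so these genes could not have turned. Few estimated reads limit the ratios of genes near 1 FPKM, and a listed 0 limits most lists to part of their members.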
